A study of Mus musculus with 8 samples.

Results

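The 10 genes described here, Apoa1, Apoa4, Apob, Apoc3, Mttp, Fabp1, Fabp2, Rbp2, Mogat2 and Dgat1, encode proteins that carry absorbed dietary fat through the intestinal epithelial cell and out of it as chylomicrons. They were chosen by name, by mouse symbol among the 21757 genes of one count table and by human symbol among the 60237 genes of a second set of tables, and all 10 were found in each. Polyadenylated RNA was sequenced, by a modified Smart-seq2 method, in 2 experiments of 4 libraries each, with 2 libraries per group. In the genotype experiment, WT organoids from mouse small intestine were compared with Ctnnb1-ex3 organoids. By common usage that name stands for a beta-catenin allele without exon 3, whose protein escapes degradation; how the allele was made, and in which cells, is not given in the sources used here. Both media held Noggin at 0.1 µg/ml and EGF at 0.05 µg/ml, and the WT medium alone also held Wnt3a and R-spondin1, so genotype and medium cannot be told apart. In the knockdown experiment, a hairpin against Prmt1 (sh-Prmt1) was compared with a scrambled hairpin (sh-scramble). The labels call these libraries mouse intestinal organoids, but every gene in their tables is human, so the cells behind them are not established here.

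Fat is digested in the gut lumen to fatty acids and monoacylglycerol, which enter the absorptive enterocyte and are bound there by small cytosolic proteins of the fatty acid-binding family. Enzymes of the endoplasmic reticulum rebuild triacylglycerol from them, and the microsomal triglyceride transfer protein loads it onto apolipoprotein B. The resulting particle gathers further apolipoproteins, travels through the Golgi in large transport vesicles and leaves the cell toward the lymph. In the intestine these genes are mostly those of the differentiated villus cell, and several of them are also strongly expressed in the liver.

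The genotype libraries held between 2951887 and 6015933 counts and the knockdown libraries between 39608249 and 53193449 estimated counts. Levels are given as CPM, the count of a gene relative to the library total after scaling by the TMM method, and a gene is called where the adjusted p of edgeR's quasi-likelihood test over all genes is under 0.05. Whether replicates came from separate cultures is not stated, so each p covers no more than the library-to-library spread, part or all of which may be technical. PRMT1 had 1373 and 1451 counts with the scrambled hairpin and 128 and 190 with its own. Ctnnb1 itself had -0.59 on the log2 scale (edgeR adjusted p = 0.0504), a gene-level count that does not check for a missing exon. It became called as lower with DESeq2 (-0.62), no filter on low counts (-0.55), limma-voom (-0.59) and a replicate block (-0.6). The same held without Ctnnb1-ex3 replicate 2 (-0.81). Among the genotype libraries, Ctnnb1-ex3 replicate 2 stood apart in lymphocyte markers: the 5 markers summed to 44.2 CPM there and to between 2.10 and 4.14 in the other 3 libraries, and Gzma had 110 counts there against 1 in each of the others. The part of those cells in the results below was not tested. With that library left out, the log2 fold changes of the 10 genes ran from -2.64 to -1.17.

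All 10 genes fell in Ctnnb1-ex3 organoids. The median log2 fold change was -1.84, and the range ran from -2.88 for Mttp to -0.98 for Fabp2. For each gene both WT libraries lay above both Ctnnb1-ex3 libraries. With 2 libraries per group, genes that were not called could separate too, such as Acsl1 (-0.18) and Acsl4 (-0.10). The share of all genes that separate in this way was not counted, so the separation adds little to the calls. Over all 12976 genes tested, 40.8% were called, 20.5% lower and 20.3% higher, and the median log2 fold change was 0.022. Together the 10 genes took 0.371% and 0.431% of all counts in the WT libraries and 0.136% and 0.114% in the Ctnnb1-ex3 libraries. In bulk RNA, fewer enterocytes and less of each transcript per enterocyte cannot be told apart. The 10 differentiated enterocyte markers used for comparison, from the sucrase-isomaltase gene Sis to the villus keratin gene Krt20, were all lower too, with summed levels of 4428 and 4979 CPM in WT against 1287 and 999.8. The smallest of these falls was -0.46 for Dpp4 (edgeR adjusted p = 0.0489), a call lost with DESeq2 and with cyclic loess (-0.14), among others. The call of Vil1 was also lost with cyclic loess (-0.28) and without WT replicate 1 (-0.85) or WT replicate 2 (-0.68). The 6 crypt base stem cell markers were all higher, summing to 430 and 448 CPM in WT against 1259 and 1445. Smoc2 had the smallest rise of these, 0.60. Its call was lost without WT replicate 1 (0.47), WT replicate 2 (0.7) or Ctnnb1-ex3 replicate 2 (0.42).

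**Figure D1:**
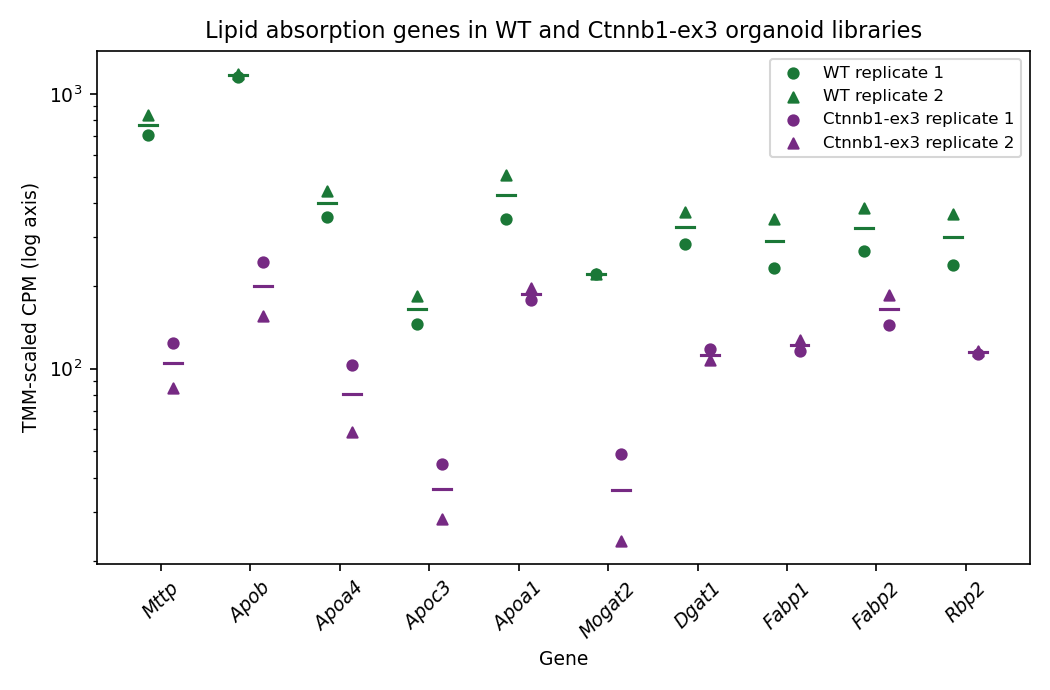
TMM-scaled CPM of the 10 genes in each of the 4 genotype libraries, on a log axis, with circles for replicate 1, triangles for replicate 2 and a bar at the mean of each group. For every gene the 2 WT libraries lie above the 2 Ctnnb1-ex3 libraries, with the widest gap at Mttp and the narrowest at Fabp2.

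The upstream sequence of 4 of the genes is shown because these carry, within 250 bases before the transcription start given by RefSeq on GRCm38.p6, letters that match a TATA box or the recognition sequence of an intestinal transcription factor. Of the 10 genes, 7 had a promoter in that table. Capitals mark a match on either strand. Each line covers bases from -150 before the start up to the first base that lies in an annotated exon of the gene. For Rbp2 the RefSeq start used here lies inside the GENCODE M21 span of the gene, which begins at chr9:98486115. The Rbp2 line is therefore upstream of the RefSeq start but within the gene as GENCODE annotates it.
Apob, chr12:7977527-7977647, plus strand: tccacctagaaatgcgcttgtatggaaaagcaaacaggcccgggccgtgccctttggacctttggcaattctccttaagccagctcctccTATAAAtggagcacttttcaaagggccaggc
Fabp1, chr6:71199729-71199826, plus strand: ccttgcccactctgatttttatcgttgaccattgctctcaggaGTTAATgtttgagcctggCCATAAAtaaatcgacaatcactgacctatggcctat
Fabp2, chr3:122894922-122895071, plus strand: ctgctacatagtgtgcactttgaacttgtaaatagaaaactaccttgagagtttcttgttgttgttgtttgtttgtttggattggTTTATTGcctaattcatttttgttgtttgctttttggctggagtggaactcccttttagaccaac
Rbp2, chr9:98490387-98490536, plus strand: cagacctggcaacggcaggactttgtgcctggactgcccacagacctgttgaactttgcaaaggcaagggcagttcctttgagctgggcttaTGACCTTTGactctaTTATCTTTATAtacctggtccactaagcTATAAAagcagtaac

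Both strands of the 250 bases were searched for exact letters, and the same search was run on all 32544 promoters of the table. TATAAA, the core of a TATA box, was present upstream of Apob, Fabp1 and Rbp2 and in 12.3% of all promoters. The Fabp1 copy, at -30 to -25, lies outside the stretch shown, past the first annotated exon base of the gene. An HNF4 site, searched as CAAAGTCCA or CAAAGGTCA, was present in Rbp2 alone of the 7, at -58 to -50 on the minus strand, and in 0.814% of all promoters. Rbp2 also held AGATAA, a site for GATA factors found in 9.97% of all promoters. Its minus-strand copy shares 1 base with the TATA letters beside it. Fabp1 held GTTAAT, a half-site for HNF1 found in 6.47%. TTTATGG or TTTATTG, searched for CDX2, was present in Fabp1 and Fabp2 and in 6.44% of all promoters. ATCAAAG, the core letters of a TCF site, was present in none of the 7 and in 3.21% of all promoters. A match describes letters only, and the data hold no binding measurement.

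The genes that build the chylomicron core, with Mogat2, had the largest falls of the 10. Mttp encodes the large subunit of the triglyceride transfer protein and went from 709 and 835 CPM to 124 and 85.0. Its libraries did not overlap between the groups, and its log2 fold change was -2.88 ± 0.24 (SE, n = 2 per group; edgeR adjusted p = 0.000189), which placed it 201st among all genes tested when ordered from the largest fall. Apob, the structural protein of which each chylomicron holds a single copy, went from 1155 and 1180 CPM to 243 and 155. The WT libraries were close to each other and the Ctnnb1-ex3 libraries lay far below them (-2.55 ± 0.26; edgeR adjusted p = 0.000389).

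The 3 apolipoproteins that ride on the particle surface share a gene cluster on chromosome 9 and fell by different amounts. Apoa4, a major intestinal apolipoprotein made in response to fat, went from 357 and 443 CPM to 103 and 58.6. Both WT libraries lay far above both others, and the log2 fold change was -2.30 ± 0.27 (edgeR adjusted p = 0.000667). Apoc3, an inhibitor of the lipase that unloads circulating particles, went from 145 and 184 CPM to 44.8 and 28.3 (-2.14 ± 0.224; edgeR adjusted p = 0.000422). Apoa1, the main protein of high-density lipoprotein, which is also secreted on chylomicrons, went from 352 and 506 CPM to 178 and 196. Its WT replicates differed more from each other than its Ctnnb1-ex3 replicates did, yet the groups did not overlap (-1.20 ± 0.213; edgeR adjusted p = 0.00375).

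Both enzymes of the monoacylglycerol pathway of triacylglycerol synthesis fell. Mogat2, which adds the first fatty acid back to monoacylglycerol, went from 222 and 221 CPM to 48.7 and 23.6. The WT replicates were nearly equal and both were well above the Ctnnb1-ex3 replicates (-2.57 ± 0.28; edgeR adjusted p = 0.000483); without Ctnnb1-ex3 replicate 1 the log2 fold change was -3.24. Dgat1, which adds the last fatty acid, went from 283 and 371 CPM to 117 and 107. The groups again did not overlap, with a smaller fold (-1.54 ± 0.185; edgeR adjusted p = 0.000726).

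The cytosolic binding proteins, with Apoa1, had the smallest falls of the 10. Fabp1, the liver-type fatty acid-binding protein that is also abundant in the proximal gut, went from 232 and 351 CPM to 116 and 127 (-1.26 ± 0.215; edgeR adjusted p = 0.00324). Fabp2, the intestinal-type binding protein, went from 267 and 383 CPM to 145 and 185. Its gap between groups was the narrowest of the 10 (-0.98 ± 0.22; edgeR adjusted p = 0.00982), and without WT replicate 2 its call was lost (-0.72, edgeR adjusted p = 0.0532). Rbp2, which binds newly absorbed retinol and hands it over for packing into chylomicrons, went from 239 and 365 CPM to 113 and 116 (-1.39 ± 0.217; edgeR adjusted p = 0.00212). In all 3 genes WT replicate 2 lay well above WT replicate 1, while both Ctnnb1-ex3 libraries lay below both of them.

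Per kilobase of the longest annotated transcript, the order of the levels was identical in both WT libraries: Fabp1 was highest, with 419 and 634 CPM per kilobase, followed by Apoa1, Rbp2, Fabp2, Apoc3, Apoa4, Mttp, Dgat1, Mogat2 and Apob. The ranges of Fabp1, Apoa1, Rbp2 and Fabp2 overlapped from one gene to the next, as did those of Apoc3, Apoa4, Mttp and Dgat1. Mogat2 (125 and 124) and Apob (82.9 and 84.7 CPM per kilobase) each lay below the gene before them in both libraries. In Ctnnb1-ex3 libraries Fabp1 stayed highest, with 210 and 230 CPM per kilobase, and Apob lowest, with 17.5 and 11.2. Dgat1, at 62.2 and 56.9 CPM per kilobase, then stood above Apoa4 (56.6 and 32.3) and Mttp (31.2 and 21.5) in both libraries, whereas in both WT libraries it stood below them.

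The size of the fall went with how densely a gene was covered by counts. In every genotype library the highest count of any tested gene stayed below 2 per base of its longest transcript, and Fabp1, a short transcript of 553 bases, had the highest mean of all 12860 genes with a length, at 1.74 counts per base in WT. Apoa1 ranked 13th at 1.38, Rbp2 30th at 1.24 and Fabp2 58th at 1.12, while Apob, with a transcript of 13934 bases, had 0.291. Across the 10 genes, the log2 of WT count per base and the log2 fold change had a Pearson r of 0.76 and a Spearman rho of 0.77. These describe genes that share the same libraries. WT replicate 1 held 1.57 times the counts of WT replicate 2 as a library, but only 1.09 times for Fabp1, 1.08 for Rbp2 and 1.15 for Apoa1 and Fabp2, against 1.62 for Apob and 1.66 for Mogat2. In Ctnnb1-ex3, replicate 1 held 1.63 times the counts of replicate 2. There the ratio was 1.56 for Fabp1, 1.67 for Rbp2 and 1.55 for Apoa1, against 2.68 for Apob and 3.52 for Mogat2. Fabp2, with 1.34, lay below the library ratio there as well. In WT the sparse genes lay nearer to the library ratio and in Ctnnb1-ex3 the dense ones did, and the cause was not tested.

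An offset that follows count per base, added after these values had been seen, left all 10 genes called lower and reduced every fold. The log2 fold change became -2.43 for Mttp, -2.31 for Apob, -2.22 for Mogat2, -1.78 for Apoa4, -1.63 for Apoc3, -1.08 for Dgat1, -0.76 for Rbp2, -0.56 for Fabp1, -0.55 for Apoa1 and -0.39 for Fabp2. Only Apob and Mogat2 exchanged places in the order. The relation to count per base remained with the offset: across the 10 genes, Pearson r was 0.83 and Spearman rho 0.78. Of the 1500 tested genes with 0.2 to 0.5 counts per base, where Apob and Mogat2 lie, 48.7% were called lower, with a median of -0.47. Among the 534 tested genes with 0.5 to 1 counts per base, where Apoa4, Apoc3, Mttp and Dgat1 lie, 48.5% were called lower and 0% higher, with a median of -0.56. Among the 100 genes above 1 count per base, where Fabp1, Apoa1, Rbp2 and Fabp2 lie, 39% were called lower, with a median of -0.60. Each of the 10 genes lay below the median of its class. The classes were set by the mean of the WT libraries, which also enter the fold change. A class high in WT can therefore lean toward falls by that choice alone, and its share in these values was not tested. Of the 6450 genes up to 0.05 counts per base, 32.1% were called higher and 6.19% lower.

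**Figure D2:**
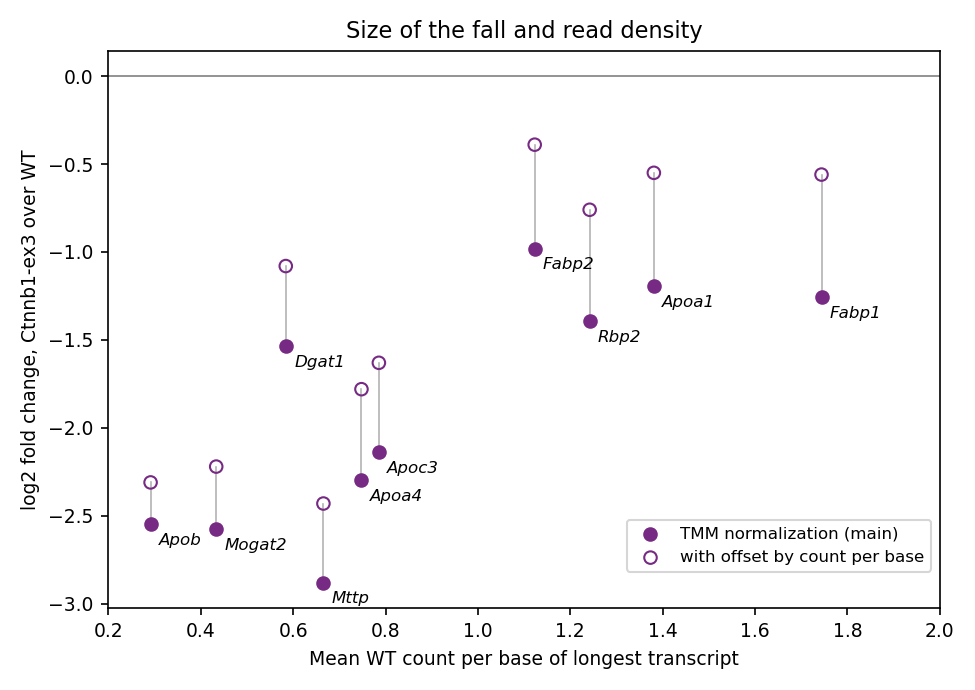
Log2 fold change of Ctnnb1-ex3 over WT for each of the 10 genes against its mean WT count per base of the longest transcript, filled for TMM normalization and open with the offset that follows count per base. The genes above 1 count per base (Fabp1, Apoa1, Rbp2, Fabp2) show the smaller falls, between -1.39 and -0.98, and the offset moves every gene toward 0 without crossing it.

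Genes that work beside these 10 were read from lists by function, each counted over the members that passed the filter on low counts. Of 16 genes of chylomicron assembly and secretion, 14 were lower and 0 higher, with a median log2 fold change of -1.34. Cideb, a lipid droplet-associated protein that helps to load lipid onto particles, fell by 3.05 on the log2 scale. Tm6sf2, a membrane protein needed for full lipidation of apolipoprotein B particles, fell by 2.63. Pla2g12b, which helps to expand lipoproteins in the endoplasmic reticulum, fell by 2.36 (-3.83 without Ctnnb1-ex3 replicate 1 and -1.75 without replicate 2). P4hb, the protein disulfide isomerase that forms the small subunit of the Mttp complex, had -0.70 (edgeR adjusted p = 0.0225), and its call was lost under 6 of the 12 alternatives; with cyclic loess it was -0.12. The gene for one subunit of the transfer complex thus had a far larger fold than the gene for the other, a difference that was not itself tested.

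Other steps of fat handling were mixed. Of 11 genes of fatty acid uptake and activation, 4 were lower and 1 higher: the fatty acid translocase Cd36 fell by 2.74 (-4.07 without Ctnnb1-ex3 replicate 1) and the transporter Slc27a4 fell by 1.49, while Slc27a1 rose by 1.54. Of 12 tested genes of triacylglycerol synthesis outside the 10, 4 were lower and 2 higher, with 1 higher with either WT replicate left out and 7 lower without Ctnnb1-ex3 replicate 1. Gpat3, which starts the glycerol phosphate route, fell by 2.57, and Dgat2, a second enzyme for the last step, fell by 2.13, while the acyltransferase Agpat4 rose by 2.16. Of 10 tested genes of lipid droplets and lipolysis, 3 were lower and 3 higher: the droplet coat gene Plin2 fell by 1.43, the monoacylglycerol lipase gene Mgll rose by 2.77, and G0s2, an inhibitor of lipolysis, had -1.44 (edgeR adjusted p = 0.0496), a call lost under 5 alternatives. Counts of that last list moved with single libraries: 1 was higher with either WT replicate left out, and 5 were lower and 5 higher without Ctnnb1-ex3 replicate 2.

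Of 10 genes of cholesterol absorption and export, 7 were lower and 2 higher (1 without WT replicate 2), with a median of -1.45. Npc1l1, the cholesterol uptake protein, fell by 2.41, and the sterol exporters Abcg5 and Abcg8 fell by 2.65 and 2.42 (Abcg5 -3.55 without Ctnnb1-ex3 replicate 1). Of 10 tested genes of other apolipoproteins and retinoid handling, 5 were lower and 2 higher, with a median of -0.05, and 3 or 2 were lower and 0 or 1 higher without WT replicate 1 or 2, and 4 were higher without Ctnnb1-ex3 replicate 1. Apoc2, which activates the lipase that unloads particles, fell by 1.20. Bco1, which cleaves carotene to retinal, had 1.29, with its call lost under 8 alternatives. Apoa5, which belongs to the same chromosome 9 cluster, had 2 to 4 counts in each library and was not tested.

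Of 18 transcription factors known for a part in this programme, 11 were lower and 0 higher, with a median of -0.87; leaving out either Ctnnb1-ex3 library gave 1 higher, as did a replicate block, and upper-quartile factors gave 2. Ppara, the fatty acid-sensing nuclear receptor, fell by 3.49, from 209 ± 6.17 CPM to 18.5 ± 0.675 (SD, n = 2). Creb3l3, a membrane-bound factor that acts on apolipoprotein genes, fell by 3.40 (-4.32 without Ctnnb1-ex3 replicate 1), and Hnf4g, the intestinal paralogue of Hnf4a, fell by 2.31. Hnf4a and Cdx2, named here after their values were seen because sites for HNF4 and CDX2 were searched above, are given beside them. Hnf4a had -0.64 (edgeR adjusted p = 0.0243), lost under 5 alternatives, and Cdx2 had 88.4 and 78.4 CPM in WT against 81.2 and 91.2 (0.04; edgeR adjusted p = 0.844). Of 12 brush border hydrolases, which digest sugars and peptides and take no part in fat handling apart from the alkaline phosphatase Alpi, 10 were lower and 0 higher, with a median of -2.20. Alpi had -3.78, Enpep -3.01 and Sis -2.77 (-4.64, -3.68 and -3.36 without Ctnnb1-ex3 replicate 1). The 10 lipid genes were thus not separate from digestive enterocyte genes in their direction, and a difference between these lists was not tested.

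Liver makes most of these proteins as well, and hepatocyte markers were read for that reason. Of 9, 3 passed the filter, 0 were lower and 1, Cyp2e1, was higher. Ttr, also a hepatocyte marker, had 245 and 163 counts in WT against 319 and 232 and was not called (-0.14; edgeR adjusted p = 0.552). Ahsg, Fgb and Hpx had at most 3 counts in any library, and Alb had 30 and 1 counts in WT against 36 and 18. Of 7 macrophage and dendritic cell markers 1 of 4 tested was lower, Cd74 with -1.72 (edgeR adjusted p = 0.0499), lost under 7 alternatives, and their sum was 110 and 24.4 CPM in WT and at most 33.9 in the other group. Of 5 lymphocyte markers 1 was tested and 0 called, and 4 were called higher without Ctnnb1-ex3 replicate 1 and 1 without WT replicate 2. Stroma and endothelium markers summed to 24.2 and 8.75 CPM in WT against 32.2 and 29.0, with 0 of 1 tested called. That gene, Vim, was called higher without WT replicate 1 (2.66; edgeR adjusted p = 0.00397), and 1 stroma marker was called higher with either Ctnnb1-ex3 library left out and with a replicate block. The adipocyte markers Adipoq, Lep and Plin1 had at most 4 counts, and Cidec, also a droplet gene, was lower.

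**Figure D3:**
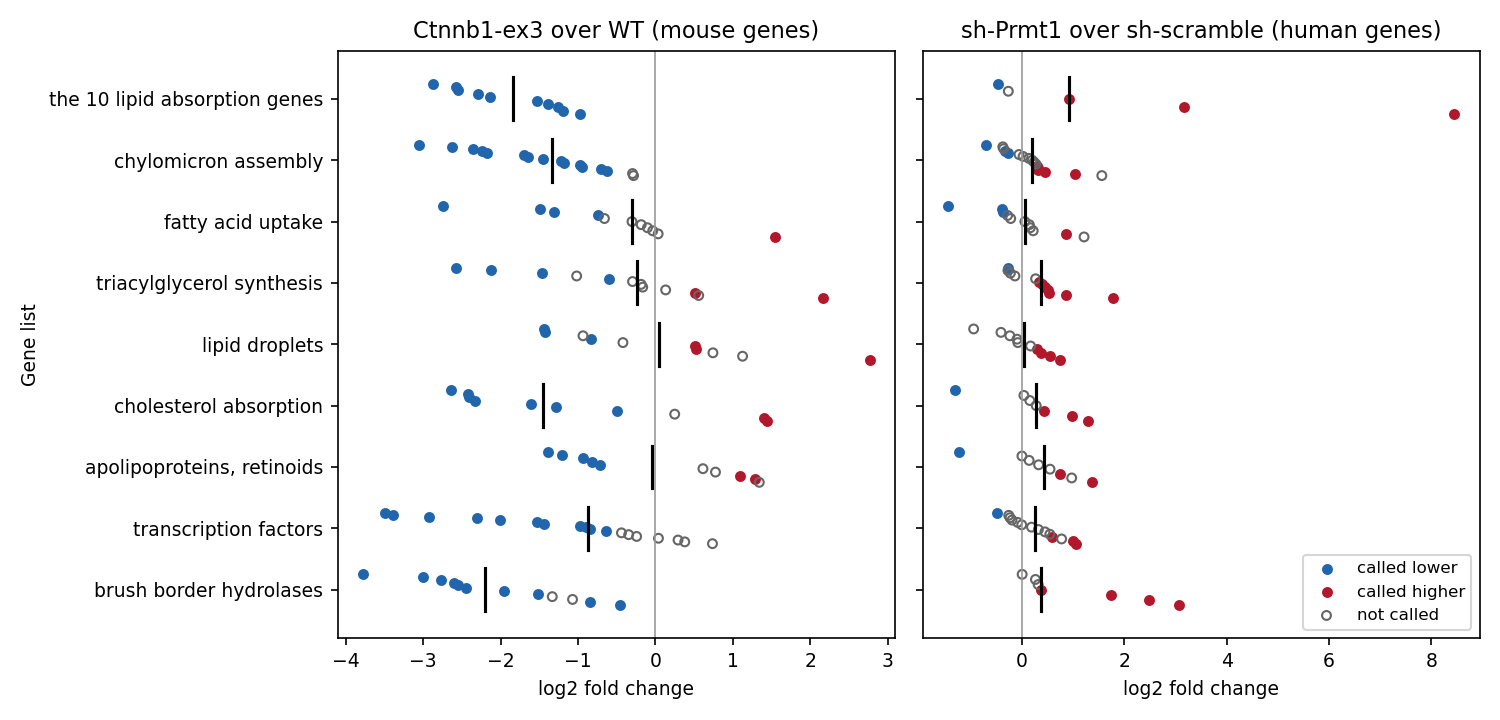
Log2 fold change of every tested gene of each functional list, for Ctnnb1-ex3 over WT on the left and sh-Prmt1 over sh-scramble on the right, in blue where called lower, red where called higher and open where not called, with a black bar at the median of the list. On the left the 10 lipid genes, chylomicron assembly, cholesterol absorption and brush border lists lie mostly below 0 (medians -1.84, -1.34, -1.45 and -2.20); on the right the medians of the 8 lists around the 10 genes lie between 0.04 and 0.44, and the RBP2 point at the far right is a fit against 0 counts that depends on the prior count.

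On mm10 the genes lie at 8 places. Apoa1 (chr9:46228580-46230466, plus strand), Apoc3 (chr9:46232933-46235636, minus strand) and Apoa4 (chr9:46240696-46243459, plus strand) form the cluster named above, with starts within 12.1 kb. Rbp2 lies on the same chromosome at chr9:98486115-98509781, Apob at chr12:7977648-8016835, Fabp1 at chr6:71199827-71205023 and Fabp2 at chr3:122895072-122899506, all on the plus strand. Mttp (chr3:138089854-138144968), Mogat2 (chr7:99219084-99238619) and Dgat1 (chr15:76502015-76511953) are on the minus strand. Mttp overlaps Trmt10a on the opposite strand, and Fabp2 overlaps 4933405D12Rik; predicted genes that overlap Apoa4, Mttp and Mogat2 were not analysed here. The library method keeps no strand in its standard form, so reads there cannot be told apart. Trmt10a had 145 and 76 counts in WT against 296 and 185, beside 3081 and 2194 against 824 and 331 for Mttp, and 4933405D12Rik had at most 14 in any library.

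The neighbours of these genes on the chromosome were mixed. The nearest tested protein-coding genes on either side of the 10 were 16 genes, of which 7 were lower, 2 higher and 7 not called, with a median log2 fold change of -0.34. In the chromosome 9 cluster, Apoc3 and Apoa4 start 7.06 and 12.1 kb from Apoa1, and the next tested gene, Zpr1 (Zfp259 in the table), starts 44.5 kb from it and had 0.31 (edgeR adjusted p = 0.106). Bud13 follows at 54.4 kb with 1.02 (edgeR adjusted p = 0.0258), a call lost under 5 alternatives. Neighbours that also fell were Adh7 beside Mttp (-5.49), Dgat2 beside Mogat2 (-2.13) and Thnsl2 beside Fabp1 (-1.61). The neighbours of Dgat1 were higher, Hsf1 with 0.97 (0.84 and not called without WT replicate 1) and Fbxl6 with 0.57, the latter lost under 5 alternatives.

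**Figure D4:**
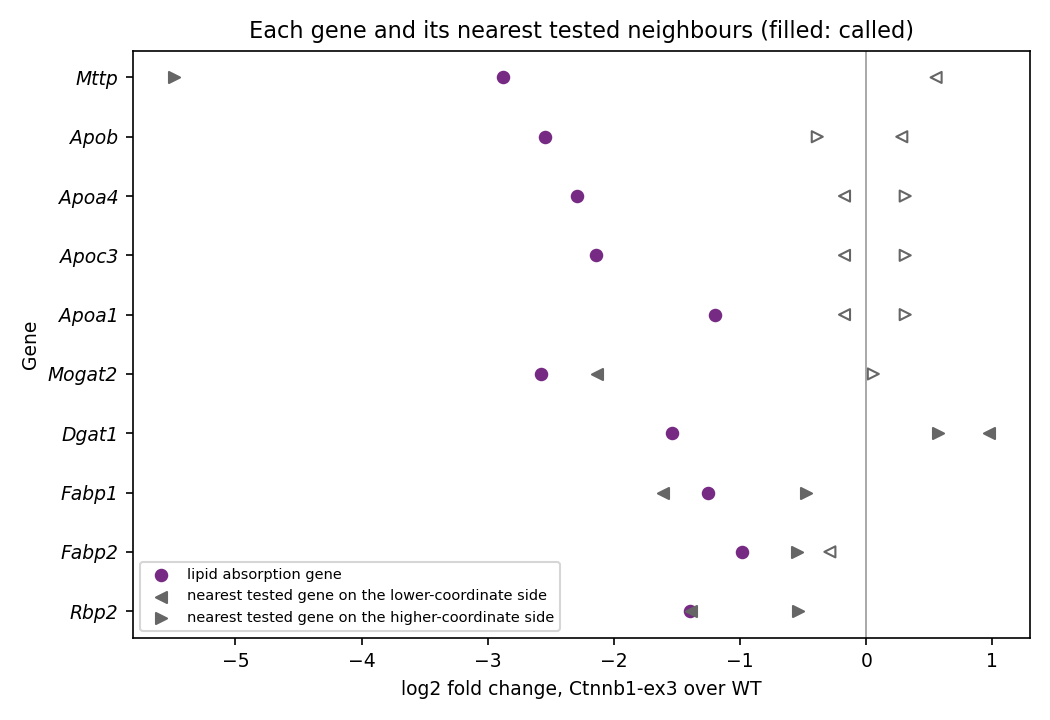
Log2 fold change of Ctnnb1-ex3 over WT for each of the 10 genes (circles) and for the nearest tested protein-coding gene on either side of it (triangles, filled where called). All circles lie below 0, while the triangles lie on both sides of it, from -5.49 beside Mttp to 0.97 beside Dgat1; Apoa1, Apoc3 and Apoa4 share their neighbours.

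The knockdown libraries held a different part of the pathway. In TPM, which scales estimated counts by gene length, FABP1 was among the 8 most abundant genes of every library, with 11647 and 13273 TPM in sh-scramble against 10738 and 10149. FABP2 (49.0, 58.7, 50.1 and 46.8 TPM) and DGAT1 (20.1, 20.6, 43.9 and 36.7 TPM) followed, in that order in every library. RBP2, MOGAT2 and the 5 chylomicron genes APOA1, APOA4, APOB, APOC3 and MTTP stayed below 2 TPM in all 4. The chylomicron genes had at most 13 estimated counts in a library and were not tested: APOB had 3 and 3 with the scrambled hairpin and 6 and 8 with the other, and MTTP had 6 and 2 against 13 and 9. A floor of 3 counts corresponds to between 0.0528 and 0.0809 CPM in these libraries, for counting error only. A high level of FABP1 thus stood beside chylomicron genes of at most 0.304 CPM, reached by MTTP in sh-Prmt1 replicate 1. MTTP and APOB lay above that floor in both sh-Prmt1 libraries.

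**Figure D5:**
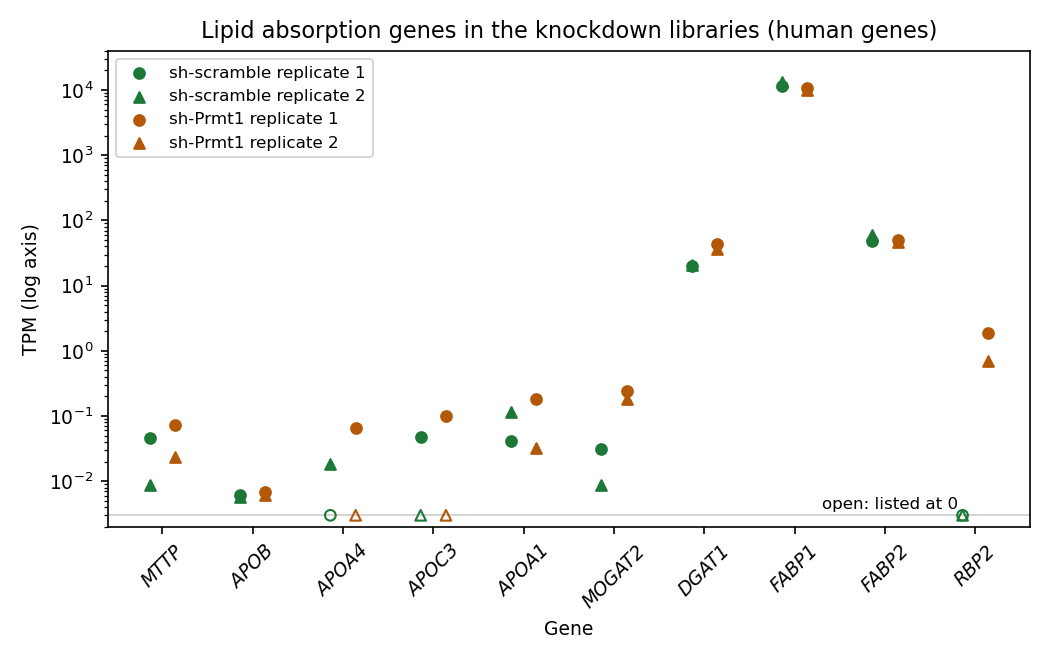
TPM of the 10 human genes in each of the 4 knockdown libraries, on a log axis, with circles for replicate 1, triangles for replicate 2 and open symbols on the grey line for values listed at 0. FABP1 lies between 10149 and 13273 TPM, FABP2 and DGAT1 between 20.1 and 58.7, and the other 7 genes below 2; the sh-Prmt1 libraries lie above the sh-scramble libraries for DGAT1, MOGAT2 and RBP2.

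Of the 5 genes tested, 1 was lower and 3 were higher in sh-Prmt1, beside 40.9% called, 20.4% lower and 20.5% higher, among all 18452 genes tested. DGAT1 rose 1.88-fold, from 22.2 and 23.6 CPM to 45.7 and 40.5 (log2 fold change 0.91 ± 0.097; edgeR adjusted p = 8.68e-05), with both sh-Prmt1 libraries above both sh-scramble libraries. FABP1 was lower, with 7174 and 7806 CPM in sh-scramble against 5386 and 5478 (-0.46 ± 0.102; edgeR adjusted p = 0.00535). That direction depended on the scaling: with cyclic loess the log2 fold change was 0.00 (limma adjusted p = 0.991), and on log2(TPM + 1) it was -0.25 (limma adjusted p = 0.468). FABP2 had 266 and 311 CPM in sh-scramble against 238 and 241 (-0.27 ± 0.098; edgeR adjusted p = 0.0535). It was not called, and became called as lower with DESeq2 (adjusted p = 0.0202), with limma-voom (adjusted p = 0.0465) and without sh-scramble replicate 1 (-0.42, edgeR adjusted p = 0.00314).

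RBP2 and MOGAT2 were higher at a very low level. RBP2 had 0 and 0 counts in sh-scramble against 61 and 31, at least 13-fold higher against a floor of 3 counts per library (edgeR adjusted p = 0.000777). Only 6 genes in all had 0 counts in both sh-scramble libraries and 30 or more in both sh-Prmt1 libraries, and 4 had the reverse. MOGAT2 had 3 and 1 counts against 23 and 24, a ratio of 9.38 after depth scaling, with a 95% exact interval from 3.43 to 35.8 that covers counting error only and not the spread between libraries (edgeR adjusted p = 0.00533). Its call was lost without sh-scramble replicate 2 (edgeR adjusted p = 0.0536), where the log2 fold change was 2.51 against 3.17, and DESeq2 gave it no adjusted p. Other genes of low level moved in this direction somewhat more often than the reverse: of 4939 tested genes with an average log2 CPM under 0, 8.52% were higher and 4.76% lower.

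The authors' deposited table of this comparison gives a log2 fold change of 0.72 for DGAT1, -0.46 for FABP1 and 7.42 for RBP2, each with an adjusted p under the threshold. In the authors' deposited table FABP2 had -0.36 with an adjusted p of 0.00746, MOGAT2 had 0.56 with 0.22, and the 5 chylomicron genes carried no adjusted p.

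Around these genes the medians of the human lists lay between 0.04 and 0.44 on the log2 scale, with larger changes in single genes. Most lists held genes called in each direction, while the lipid droplet and brush border lists had called genes on the higher side only. Of 12 tested genes of triacylglycerol synthesis, 7 were higher and 1 lower, with a median of 0.37. DGAT2 rose by 0.86, AGPAT1 by 0.52 and AGPAT2 by 0.51 on the log2 scale, so that DGAT1 and DGAT2, which both carry out the last acylation step, were higher. Without sh-scramble replicate 2 or sh-Prmt1 replicate 1 the list had 3 genes higher and 0 lower, and without sh-Prmt1 replicate 2 it had 4 higher. Of 17 tested genes of chylomicron assembly and secretion, 5 were higher and 3 lower, with a median of 0.20. P4HB rose by 1.03 and the coat protein gene SEC13 by 0.45, while the coat GTPase gene SAR1A had -0.70, which became 0.29 on log2(TPM + 1). Counts of this list moved with single libraries, to 2 higher and 5 lower without sh-scramble replicate 1 and 3 higher and 1 lower without sh-Prmt1 replicate 1; without sh-Prmt1 replicate 2 there were 3 higher.

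Of 11 tested genes of fatty acid uptake and activation, 3 were lower and 1 higher, with a median of 0.06, and 1 was lower without sh-Prmt1 replicate 1. ACSL4, which activates long fatty acids, had -0.38, with the call lost without sh-Prmt1 replicate 1, and DBI, the acyl-CoA-binding protein, had -0.39, which became 0.01 with cyclic loess. Of 10 tested genes of lipid droplets, 4 were higher and 0 lower (MGLL 0.56, PLIN3 0.38, FITM2 0.29), and with any 1 library left out 2 were higher. Of 7 tested cholesterol genes, 3 were higher and 1 lower: the lipoprotein receptor SCARB1 rose by 0.97 and the cholesterol esterifying enzyme SOAT1 by 0.44, a call lost without sh-scramble replicate 1. Of 8 tested apolipoprotein and retinoid genes, 2 were higher (1 without sh-scramble replicate 2) and 1 lower, and APOC1 fell by 1.22.

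Of 14 tested transcription factors, 3 were higher and 1 lower, with a median of 0.25: the xenobiotic receptor NR1I2 rose by 1.06 and PPARG fell by 0.49. HNF4A, again named after its values were seen, had 124 and 155 CPM in sh-scramble against 161 and 118, with overlapping groups (-0.01; edgeR adjusted p = 0.984). Of 7 tested brush border genes, 4 were higher and 0 lower, DPP4 by 0.38. Of 9 tested enterocyte markers, 4 were higher and 1 lower, and the list summed to 454 and 429 CPM in sh-scramble against 493 and 507; 6 of its 10 genes are also brush border genes. Of 5 tested stem cell markers 2 were lower and 0 higher, with 1 lower without sh-scramble replicate 2 or sh-Prmt1 replicate 1. Hepatocyte markers summed to between 0.917 and 3.24 CPM, with ALB at 0 and 0 counts against 4 and 2. TTR was called higher (3.71), a call lost with DESeq2 (DESeq2 adjusted p = 0.153). Its log2 fold change was 2.75 without sh-scramble replicate 1 and 9.5 without sh-scramble replicate 2. The macrophage markers CD68 and LYZ were called higher too (LYZ not without sh-Prmt1 replicate 1), and that list summed to 2.19 and 2.03 CPM in sh-scramble against 5.96 and 5.56. The part of these cell types in the change of RBP2 and MOGAT2 was not tested. Of 4 tested lymphocyte, stroma and adipocyte markers, 0 were called.

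Side by side, the log2 fold changes in Ctnnb1-ex3 mouse organoids and in sh-Prmt1 libraries were -1.54 and 0.91 for Dgat1, -1.26 and -0.46 for Fabp1, -0.98 and -0.27 for Fabp2 and -2.57 and 3.17 for Mogat2. Rbp2 had -1.39 in Ctnnb1-ex3 and was called higher, from 0 counts, in sh-Prmt1. The tables hold genes of different species counted in different ways, so the difference between the experiments was not tested. Prmt1 itself rose by 1.97 on the log2 scale in Ctnnb1-ex3 organoids (edgeR adjusted p = 0.00287), and PRMT1 had -3.49 in the sh-Prmt1 libraries.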

How the data were processed

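RNA was profiled in 8 libraries, 2 per group. The genotype table holds raw whole-number counts per gene as deposited by the authors, with the lowest value at 1, and the submitters' processing notes name mm10, Salmon and DESeq2 without saying which step each served. The knockdown tables hold Salmon estimated counts and TPM per gene, per the file headers; they list 60237 human gene identifiers and 0 mouse ones, and no source used here names their build or annotation. The authors' deposited comparison tables hold log2 fold changes and adjusted p-values. Estimated counts were rounded.

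Each experiment was fitted alone over all its genes with edgeR 4.0.16 (limma 3.58.1, R 4.3.3): filterByExpr, TMM, a quasi-likelihood fit and test, two-sided, Benjamini-Hochberg adjustment, called under 0.05. Standard errors are on the log2 scale. The same fit was checked on simulated counts. Alternatives were DESeq2 1.42.0, upper-quartile factors, cyclic loess, limma-voom, no filter, a replicate block, each library left out, limma on log2(TPM + 1), 1 taken from every genotype count and, added after seeing the data, an offset by count per base of the longest GENCODE M21 transcript. Promoter sequences came from RefSeq on GRCm38.p6.

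The genes, lists and tests were chosen with earlier results of these data known. All 10 genes are named; from each list, the 3 called genes with the largest change at an average log2 CPM of at least 3 are named, with Apoa5, Zpr1 and P4hb, called markers, Prmt1 and Ctnnb1. Some genes that this rule names are not reported here. Replicates of each group differed by more than sampling noise (chi-square per degree of freedom from 3.75 to 29.87). A floor of 3 counts is 0.451 to 1.14 TMM-scaled CPM in the genotype libraries.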

Additional observations from a re-analysis of the deposited data

How the results depend on the processing

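In the genotype experiment all 10 genes were called lower in every alternative except 1: leaving out each library in turn gave 9 to 10, the 9 without WT replicate 2. Over all genes, upper-quartile factors gave 1752 lower and 3725 higher in place of 2654 and 2637, with the median of all genes at 0.259, and leaving out WT replicate 1 or 2 gave 1635 and 1325 or 1524 and 1110. Without Ctnnb1-ex3 replicate 2 there were 3749 and 4008. In the knockdown, 1 of the 10 genes was called lower, against 2 with DESeq2, 2 with limma-voom, 0 with cyclic loess and 0 with limma on log2(TPM + 1), and 1 to 2 with each library left out. The 3 called higher became 2 with DESeq2 and 2 to 3 with each library left out. DBI turned to 0.01 with cyclic loess and SAR1A to 0.29 with limma on log2(TPM + 1), which also gave 1934 lower and 3610 higher over all genes. The cause was not tested. Of 146 genotype genes checked, 0 reversed. A replicate block kept the counts at 10 lower in the genotype experiment and at 1 lower and 3 higher in the knockdown, and gave 3503 lower and 2981 higher genotype genes in all. Same-numbered libraries share only a number (correlation of deviations 0.0706 and -0.0515). The 5 human chylomicron genes did not pass the filter on low counts, so no difference was tested for them.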
